A study of Mus musculus with 201 samples.

Results

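The genes described here make cholesterol and fatty acids, and they were followed across hippocampal RNA of 100 mouse strains. The 29 members were named by gene symbol: the enzymes from acetyl units to cholesterol, the SREBP regulators, sterol transport and turnover proteins, and 5 enzymes of fatty acid synthesis. Of these, 28 had at least 1 probe set assigned to that symbol alone, with 64 probe sets in all, out of 18193 genes and 45037 probe sets tested. Acat2 was not analysed here. The brightest probe set of a gene, by mean score, represents it below and is called probe set 1, and its other probe sets are numbered by falling mean. Values are PDNN scores, a log-like summary of probe brightness of unstated base, so differences are in score units and no fold is given. Scores of different probe sets are not compared with each other.

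The study hybridised 201 Affymetrix M430 2.0 arrays with RNA of pools of 1 to 4 mice. The BXD panel (68 strains, 134 arrays) holds recombinant inbred lines, each an inbred mosaic of C57BL/6J and DBA/2J alleles, and some of its lines were nearly rather than fully inbred. The CXB panel (13 strains, 27 arrays) holds such lines from C57BL/6ByJ and BALB/cByJ. A set of 13 classical inbred strains was on 27 arrays: 129S1/SvImJ, A/J, AKR/J, BALB/cByJ, BALB/cJ, C3H/HeJ, C57BL/6ByJ, C57BL/6J, DBA/2J, KK/HIJ, LG/J, NOD/LtJ and NZO/HlLtJ. The wild-derived inbred strains CAST/EiJ, PWD/PhJ, PWK/PhJ and WSB/EiJ were on 7 arrays, and the reciprocal hybrids B6D2F1 and D2B6F1 were on 6. Of those 6, 2 were technical duplicates of 1 B6D2F1 pool. Both sexes were used, with 101 female arrays, 99 male arrays and 1 of mixed sex, and pools were 41 to 196 days old on average (median 62). Of the strains, 89 had 2 arrays, 6 had 3 and 5 had 1.

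Cholesterol in the brain is made locally, because lipoproteins of the blood do not cross the blood-brain barrier. The mevalonate pathway builds isoprenoid units from acetyl groups, squalene is folded into lanosterol, and a chain of oxidations, demethylations and reductions leads to cholesterol. SREBP transcription factors drive many of these genes when sterols are low, with SREBP-2 mainly on the sterol enzymes and SREBP-1 on the fatty acid enzymes, and INSIG proteins hold the SREBP precursors back when sterols are high. Astrocytes supply sterol to neurons, and oligodendrocytes make large amounts of sterol and fatty acids for myelin.

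Promoter sequences were matched by symbol to the RefSeq promoter table (mouse build GRCm38.p6), which held 28 start sites of 23 members. A search of the 250 bases before each start, on both strands, found the sterol regulatory element letters TCACNCCAC at 1 of 28 member start sites, that of Hmgcs1, against 1.05% of 32851 promoters. The letters CCAAT, known from NF-Y binding, stood at 20 of the 28 start sites (19 genes), against 33.8% of all promoters. GGGCGG, known from Sp1 binding, stood at 22 (20 genes), against 32.7%. The E-box letters CACGTG stood at 5, of Hsd17b7, Sc5d, Dhcr7, Insig1 and Abca1, against 6.02%. GC-rich motifs can overlap each other, and a match is a description of letters, not a binding site. The stretches below belong to 8 of the 10 genes in the member pairs with r of 0.5 or more within strains once 4 components shared by other genes were removed, as described further on. They are the 8 with an entry in the promoter table, and each holds a CCAAT box on either strand. Sqle and Fdft1 had no entry and were not searched. They run 5′ to 3′ on the gene's strand within those 250 bases, and capitals mark CCAAT, its reverse complement ATTGG and, in Hmgcs1, the sterol regulatory element.
Hmgcs1: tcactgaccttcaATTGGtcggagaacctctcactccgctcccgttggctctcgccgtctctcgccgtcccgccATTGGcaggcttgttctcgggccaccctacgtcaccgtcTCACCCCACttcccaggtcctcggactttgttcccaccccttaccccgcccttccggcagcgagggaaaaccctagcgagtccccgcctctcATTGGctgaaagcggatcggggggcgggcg
Mvd: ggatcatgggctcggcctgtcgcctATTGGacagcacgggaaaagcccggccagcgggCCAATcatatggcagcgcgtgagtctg
Idi1: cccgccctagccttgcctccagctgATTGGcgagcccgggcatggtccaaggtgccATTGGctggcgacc
Cyp51: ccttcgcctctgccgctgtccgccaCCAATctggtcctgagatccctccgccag
Tm7sf2: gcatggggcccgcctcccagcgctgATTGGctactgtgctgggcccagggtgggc
Msmo1: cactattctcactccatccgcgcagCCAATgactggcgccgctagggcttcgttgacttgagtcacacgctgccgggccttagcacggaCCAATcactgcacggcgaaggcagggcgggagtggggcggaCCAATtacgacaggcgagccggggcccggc
Nsdhl: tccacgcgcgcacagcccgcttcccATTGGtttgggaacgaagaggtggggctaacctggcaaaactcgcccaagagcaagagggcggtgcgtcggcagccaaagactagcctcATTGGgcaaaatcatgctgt
Ebp: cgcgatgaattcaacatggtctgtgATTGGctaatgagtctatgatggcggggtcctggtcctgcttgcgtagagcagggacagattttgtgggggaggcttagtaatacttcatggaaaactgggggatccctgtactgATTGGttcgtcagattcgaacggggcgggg

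Hmgcs1 had 3 CCAAT or ATTGG matches besides its sterol element, and its stretch lies at chr13:119690101-119690335 on the plus strand. Msmo1 also had 3 matches (chr8:64733604-64733763, minus strand). Mvd (chr8:122443423-122443507, minus), Idi1 (chr13:8885536-8885605, plus), Nsdhl (chrX:72918387-72918520, plus) and Ebp (chrX:8193538-8193707, minus) had 2 each. Cyp51 (chr5:4104698-4104751, minus) and Tm7sf2 (chr19:6067868-6067922, minus) had 1 each in the stretch shown. All 8 lie within 250 bases upstream of an annotated start site.

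The arrays had mean scores of 8.06 to 8.1 and SDs of 0.63 to 0.799, and their number limits the precision. Between 0.433 and 0.553 of an array's probe sets were called present. The labelled ratio of 3' to 5' signal for ACTB, a sign of RNA integrity, ran from 0.9 to 4.65. The tissue label was set against neuronal genes. Neurod2, a transcription factor of forebrain neurons, had a median score of 9.606 over the 201 arrays, Wfs1, a marker of CA1 pyramidal cells, 9.569, and Prox1, a marker of dentate granule cells, 8.286. Dissections may hold varying amounts of subiculum and of fimbria, a myelinated tract, per the labels. In whole tissue, fewer cells of a type and less RNA per cell cannot be told apart. Separate animals for each pool of a strain are not stated in the labels, so p-values cover only the spread between pools, which may be partly technical.

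Which members differ from strain to strain was asked first of the BXD panel. By their representative probe sets, 2 of 28 members differed across the 68 strains: Stard4, a carrier that moves cholesterol between membranes, and Cyp51, the lanosterol demethylase. With batch and sex in the model, limma's moderated F-test at an adjusted p under 0.05 called 7.61% of all genes. At an unadjusted p under 0.05 there were 6 members, against 2426 of all 18193 genes. The intraclass correlation, the share of variance that lies between strains, had a median of 0.0366 over the members and -0.01553 over all genes. Of the 64 member probe sets 7 passed, against 6.95% of all probe sets, and they belonged to 5 genes.

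No mevalonate enzyme passed in the BXD panel by its representative probe set. Hmgcs1, which makes HMG-CoA, had an intraclass correlation of -0.005738 by probe set 1 but 0.5395 by probe set 4 (adjusted p = 9.29e-07). Strain means of that probe set ran from 9.218 in BXD9 through a median of 9.49 to 9.858 in BXD43. Across the 68 strains its means correlated with those of probe set 1 at r = 0.302, while probe sets 2 and 3 correlated with probe set 1 at r = 0.725 and 0.652. With RMA scores the intraclass correlation of probe set 4 was 0.09127 (adjusted p = 0.931), which did not pass. Mvd, mevalonate decarboxylase, and Mvk, mevalonate kinase, were at -0.1589 and -0.1841. Values below 0 arise when arrays of a strain differ more than arrays of different strains.

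Among the sterol enzymes, Cyp51 had strain means from 8.328 in BXD9 through a median of 8.511 to 8.858 in BXD13, an intraclass correlation of 0.4974 and an adjusted p of 1.35e-05. Its probe set 2 also passed (0.3381, adjusted p = 0.0128), and the strain means of both correlated at r = 0.86. The call of probe set 2 ended with MAS5 scores (adjusted p = 0.193), without the batch term (0.24) and without pools older than 100 days (0.0624). Nsdhl, a C4 decarboxylating dehydrogenase, ran from 8.307 through 8.444 to 8.602 (0.2972, adjusted p = 0.0608). Sqle, the squalene epoxidase and a rate-controlling enzyme, ran from 8.815 in BXD9 through 9.002 to 9.178 in BXD13 (0.232). Neither passed. BXD9 and BXD13 were thus the lowest and highest strains for both Cyp51 and Sqle. For Sqle, BXD89 (8.816) and BXD2 (9.177) were almost level with them. BXD9 had 1 array in the fit, and these strain means are not adjusted for batch. Among BXD strains BXD9 was also lowest for Msmo1, Dhcr7, Fdft1, Fasn and Cyp46a1 and highest for Lss and Tm7sf2.

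Sc5d, the desaturase that places the double bond at C5 of the sterol ring, stood apart through 1 of its 3 probe sets. Scores of probe set 3 fell into a low group of 81 arrays, from 7.704 to 8.065 with a median of 7.88, and a high group of 53 arrays, from 8.252 to 9.026 with a median of 8.739. No array lay in the gap of 0.187 units between them. All arrays of a strain were on the same side, with 41 strains low and 27 high and 0 strains split. The means of the groups differed by 0.856 units, a description of groups that were defined by these same values. The intraclass correlation was 0.9275 (adjusted p = 4.28e-38), and under the alternative settings it stayed between 0.9221 and 0.9351.

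The parents of the BXD lines lay on opposite sides of that gap. C57BL/6J arrays scored 8.544, 8.785 and 8.522 (mean 8.617 ± 0.146, SD, n = 3), and DBA/2J arrays scored 7.942 and 7.828 (7.885 ± 0.0806, SD, n = 2). The 6 F1 arrays ran from 8.303 to 8.584 with a median of 8.37. All F1 arrays were above both DBA/2J arrays. The highest (8.584) overlapped the C57BL/6J arrays, but it and the lowest (8.303) were technical duplicates of 1 B6D2F1 pool. Probe sets 1 and 2 of Sc5d showed no such grouping. Their strain means ran from 8.246 to 8.745 and from 8.045 to 8.591, with intraclass correlations of -0.04196 and 0.1705. Across strains, probe set 3 correlated with probe set 1 at r = 0.0764. The grouping is therefore a feature of 1 probe set and not of the gene's signal as a whole, and probe sequences were not used here.

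The same probe set separated strains outside the BXD panel less sharply. The 5 arrays of C57BL/6J and C57BL/6ByJ ran from 8.522 to 8.92. The 22 arrays of the other 11 classical strains ran from 7.828 to 8.59 with a median of 8.071, and the 7 wild-derived arrays from 7.798 to 8.366 with a median of 8.022. Among the 13 CXB strains the means ran from 7.978 to 8.71, and the widest step lay between 8.425 and 8.633, with 8 strains below and 5 above it (CXB4, CXB5, CXB6, CXB10 and CXB11). The CXB intraclass correlation was 0.8304 (adjusted p = 1.3e-11).

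**Figure D1:**
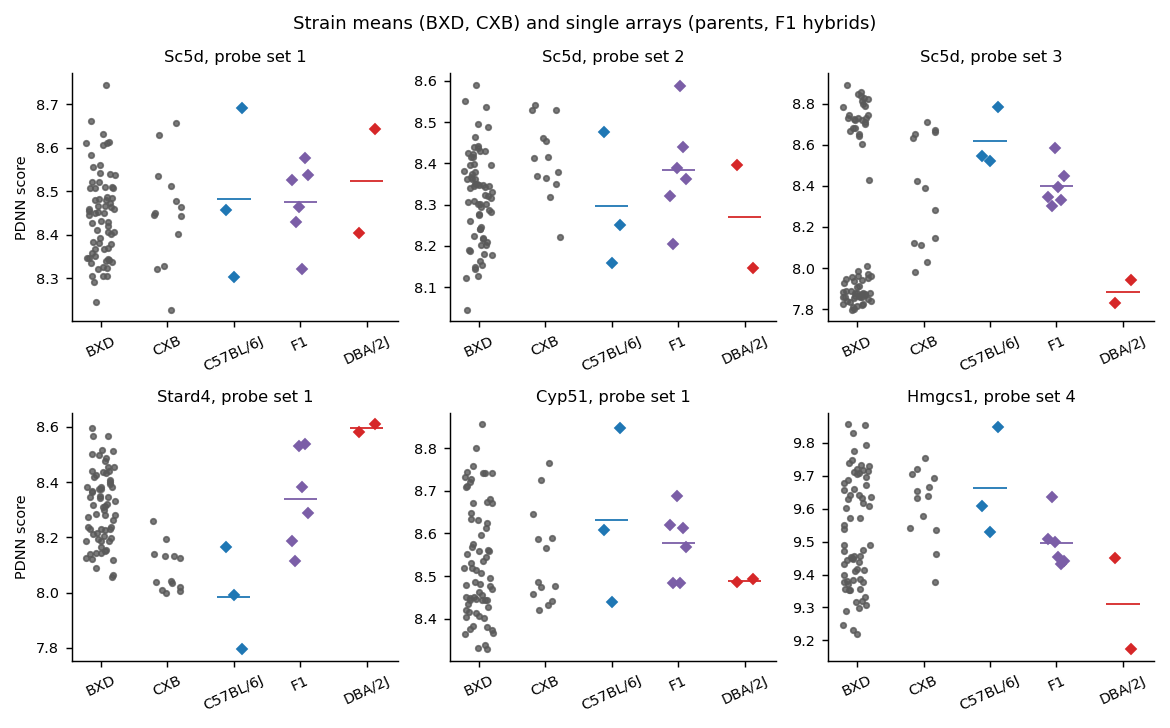
PDNN scores (vertical axes, each panel on its own scale) of 6 member probe sets; grey points are strain means of the 68 BXD and 13 CXB strains, diamonds are single arrays of C57BL/6J, the F1 hybrids and DBA/2J, and short lines are their means. Sc5d probe set 3 falls into a low and a high group of BXD strains, with DBA/2J low and C57BL/6J high, while Sc5d probe sets 1 and 2 and the other genes spread without a gap of that kind.

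Among transport genes, Stard4 had BXD strain means from 8.056 in BXD94 through a median of 8.316 to 8.594 in BXD34, with an intraclass correlation of 0.5458 and an adjusted p of 7.51e-07. Its probe set 3 also passed (0.4241, adjusted p = 0.000549), with means from 7.466 through 7.637 to 8.072, and the means of both probe sets correlated at r = 0.709. Probe set 2 did not pass (adjusted p = 0.465) and correlated with probe set 1 at r = 0.569. The strain effects of Stard4 and Cyp51 passed under each of the 11 alternative settings run for them. Abca1, the pump that loads cholesterol onto lipoproteins, had an intraclass correlation of 0.01412, and Cyp46a1, which turns neuronal cholesterol into 24-hydroxycholesterol for export, had 0.1668.

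The regulators did not pass in the BXD panel. Srebf1, which encodes SREBP-1, ran from 8.328 in BXD20 through 8.516 to 8.758 in BXD73a (intraclass correlation 0.2572). Srebf2, for SREBP-2, was at -0.002571 and Insig1 at 0.09536. Of the fatty acid enzymes, Scd1, a stearoyl-CoA desaturase, ran from 9.214 in BXD34 through 9.407 to 9.73 in BXD55 (0.2214) and did not pass. Scd2, the desaturase most abundant in brain, was at -0.1497 by probe set 1. Its probe set 3 ran from 8.088 in BXD73a through 9.458 to 10.29 in BXD33 and passed (0.3469, adjusted p = 0.00663, and 0.0562 without the batch term), though its strain means correlated with those of probe set 1 at r = -0.111.

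In the CXB panel 1 of 28 members passed, Mvd, against 4.58% of all genes. At an unadjusted p under 0.05 there were 11, against 3337 of all 18193 genes. The median intraclass correlation was 0.2342 over the members and 0.1083 over all genes. Strain means of Mvd ran from 7.977 in CXB13 through 8.116 to 8.249 in CXB5 (intraclass correlation 0.5033, adjusted p = 0.0266). Its call ended with RMA scores (adjusted p = 0.0663), without the batch term (0.139), without arrays of a high outlier share (0.338), and with the CXB panel fitted alone (0.837, intraclass correlation -0.002289).

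The next members did not pass in the CXB panel. Ebp, the sterol isomerase, ran from 8.218 in CXB11 through 8.378 to 8.484 in CXB6 (0.4296). Dhcr7, which makes cholesterol from 7-dehydrocholesterol, ran from 8.469 in CXB13 through 8.595 to 8.766 in CXB7 (0.4199). Cyp51 ran from 8.421 in CXB4 through 8.486 to 8.766 in CXB2 (0.404, adjusted p = 0.119). Of the 64 member probe sets 3 passed, those of Mvd and Sc5d and probe set 2 of Elovl6, an elongase of long-chain fatty acids (0.5243, adjusted p = 0.0146). The Elovl6 call ended with MAS5 scores (0.152), without the batch term (0.0642), without arrays of a high outlier share (0.109) and with the CXB panel alone (0.15). The share over all probe sets was 4.2%. Stard4, at -0.002423, had strain means from 8 in CXB1 through 8.04 to 8.258 in CXB6. Whether strain effects differ between the BXD and CXB panels was not tested.

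**Figure D2:**
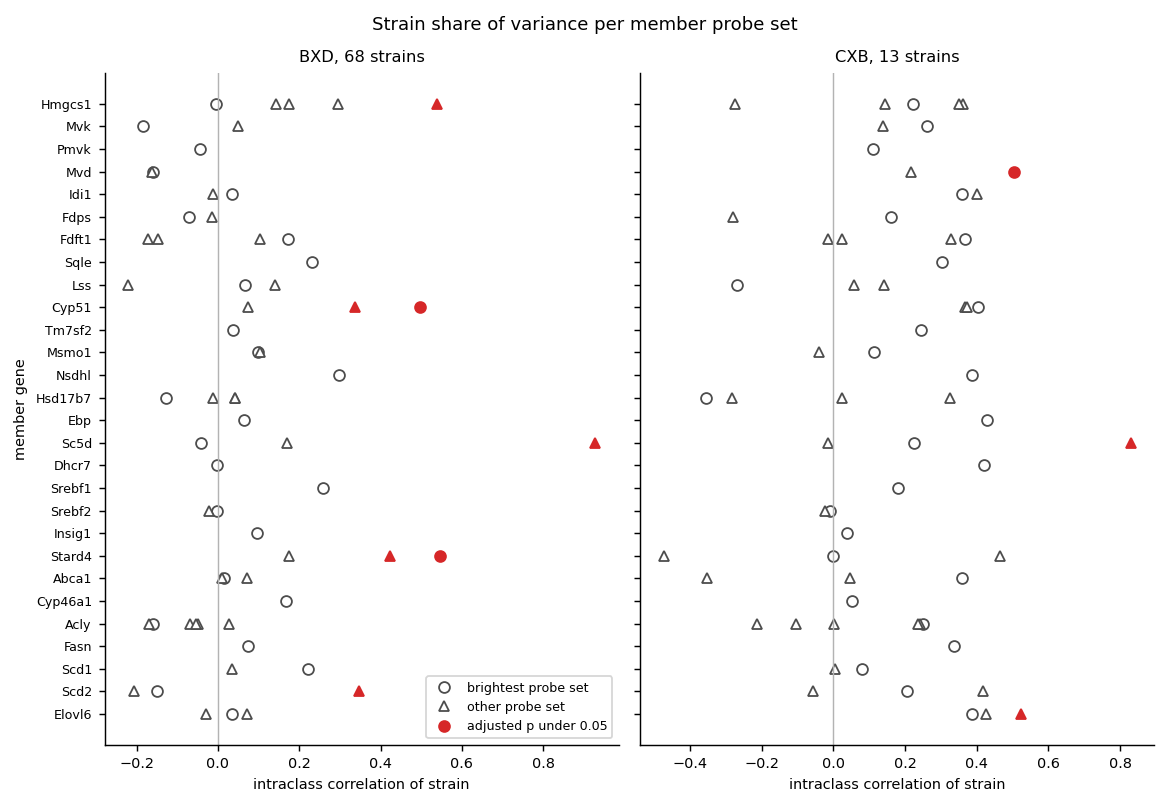
Intraclass correlation of strain (horizontal axis, the share of variance between strains, which can fall below 0) for the 64 member probe sets, grouped by gene in pathway order, in the BXD panel (left) and the CXB panel (right); circles are the brightest probe set of a gene, triangles its other probe sets, and red marks an adjusted p under 0.05. Red marks are 7 in the BXD panel and 3 in the CXB panel, and Sc5d probe set 3 has the highest value in both.

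Over all 100 strains, 15 of 28 members passed, against 24.6% of genes. An unadjusted p under 0.05 was reached by 20, against 6600 of all 18193 genes. The largest intraclass correlations were those of Stard4 (0.6897, adjusted p = 4.63e-14), Cyp46a1 (0.4911, adjusted p = 1.62e-06) and Cyp51 (0.4543, adjusted p = 1.13e-05). Stard4 strain means ran from 7.613 in PWD/PhJ to 8.596 in DBA/2J, and Cyp46a1 strain means from 9.116 in AKR/J to 9.835 in BXD45. Scd1, Srebf1, Insig1, Abca1, Nsdhl, Tm7sf2, Pmvk, Fdft1, Sqle, Fasn, Elovl6 and Ebp also passed. By role these were 1 mevalonate enzyme, 6 sterol enzymes, 2 regulators, all 3 transport and turnover genes and 3 fatty acid enzymes. The median intraclass correlation was 0.2357 over members and 0.1139 over all genes. All 28 members have a mean score of 8 or more, while the backgrounds here and in the BXD and CXB panels are over genes of any mean.

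How the parental strains of the BXD panel differ was asked with 2 DBA/2J and 3 C57BL/6J arrays. Stard4 and Abca1 were higher in DBA/2J and Scd1 was lower, and no other member passed by its representative probe set. The background was 5.73% of all genes, with 2.63% higher and 3.11% lower. Of the 28 estimates 14 were above 0, with a median of -0.00946 against -0.02606 over all genes. An unadjusted p under 0.05 was found for 4, against 2762 of all 18193 genes. DBA/2J arrays were both of females and C57BL/6J arrays were of 1 female and 2 male pools, and the fit takes sex and batch into account.

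Stard4 scored 8.165, 7.795 and 7.991 in C57BL/6J (mean 7.984 ± 0.185, SD, n = 3) and 8.611 and 8.581 in DBA/2J (8.596 ± 0.0212, SD, n = 2). The strains did not overlap. The limma estimate was +0.6003 ± 0.09331 (SE, adjusted p = 1.42e-06), and between the single arrays of each strain in batch 5 the difference was +0.59. The hybrids lay between the parental means, with B6D2F1 arrays at 8.187, 8.114 and 8.53 and D2B6F1 arrays at 8.289, 8.538 and 8.382. The B6D2F1 arrays at 8.114 and 8.53 were technical duplicates of the same pool. Probe set 3 of Stard4 scored 7.537, 7.407 and 7.607 in C57BL/6J and 8.022 and 7.962 in DBA/2J, an estimate of +0.4491 ± 0.0859 (SE, adjusted p = 9.93e-05). Probe set 2 of Stard4 did not pass, with an estimate of +0.01663 (limma adjusted p = 0.953).

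Abca1 scored 8.841, 8.945 and 8.769 in C57BL/6J and 9.062 and 9.228 in DBA/2J, with no overlap. The estimate was +0.3024 ± 0.08453 (SE, adjusted p = 0.0123), and probe sets 2 and 3 of the gene overlapped between the strains. The call ended without DBA/2J replicate 2 (adjusted p = 0.235) or C57BL/6J replicate 3 (0.145), with MAS5 scores (0.088) and with 4 principal components of other genes as covariates (0.183). Scd1 scored 9.483, 9.605 and 9.546 in C57BL/6J and 9.235 and 9.303 in DBA/2J, with the F1 arrays between 9.296 and 9.468. All DBA/2J arrays were below all C57BL/6J arrays, and the estimate was -0.2716 ± 0.07618 (SE, adjusted p = 0.0127). This call ended without DBA/2J replicate 1 (adjusted p = 0.283) or C57BL/6J replicate 2 (0.0652), with MAS5 scores (0.0626) and with the components (0.0526). Probe set 2 of Scd1 had an estimate of the other sign, +0.09216, that did not pass (limma adjusted p = 0.838).

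Of the 64 member probe sets 6 passed, against 7.24% of all probe sets. Besides those above they were Sc5d probe set 3 (-0.7636 ± 0.1079, SE, adjusted p = 1.04e-07) and Elovl6 probe set 3 (+0.236 ± 0.06212, SE, adjusted p = 0.00703). This Elovl6 call ended without C57BL/6J replicate 2 (0.156) or DBA/2J replicate 1 (0.181), with MAS5 scores (0.462) and without the batch term (0.0529). Probe set 3 of Sc5d was lower in DBA/2J under every alternative run for it, from -0.7255 to -1.605 on their scales. Scd2 probe set 3 scored 9.024, 7.863 and 9.24 in C57BL/6J and 9.395 and 10.151 in DBA/2J, an estimate of +1.256 ± 0.4258 that did not pass (adjusted p = 0.0537, and 0.0199 without C57BL/6J replicate 3). Cyp51, with an estimate of -0.1947, did not pass either (0.303), nor did Cyp46a1 (-0.221, adjusted p = 0.125).

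Markers of other cell types moved with this comparison, in which 2.63% of all genes were called higher and 3.11% lower. Of 10 measured myelin and oligodendrocyte markers 8 were lower in DBA/2J, with a median estimate of -0.5604, and their mean level ran from 9.573 to 10.16 in the C57BL/6J arrays and from 9.236 to 9.387 in the DBA/2J arrays. Of 8 astrocyte markers 1 was higher (Slc1a3, +0.3261) and 1 lower (Gfap, -0.9913), and their mean levels were 9.587 to 9.857 and 9.669 to 9.681, which overlap. Of 6 microglial markers 1 was higher in DBA/2J (Cx3cr1, +0.355, limma adjusted p = 0.0344), and their mean level ran from 8.453 to 8.553 in C57BL/6J and from 8.699 to 8.74 in DBA/2J, without overlap. The part of these shifts in the results for Scd1, Abca1 and Stard4 was not tested.

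Whether wild-derived strains differ from classical ones was asked over the means of 4 and 13 strains. Lss, which folds squalene epoxide into lanosterol, was the 1 of 28 members that passed, and it was higher in the wild-derived strains, against 3.83% of genes called and 1.71% called higher. Strain means of Lss were 8.567 in CAST/EiJ, 8.43 in PWD/PhJ, 8.5 in PWK/PhJ and 8.606 in WSB/EiJ (8.526 ± 0.0774, SD, n = 4), against 8.242 to 8.53 in the classical strains (8.359 ± 0.0773, SD, n = 13). The sets overlapped. The limma estimate was +0.1771 ± 0.04252 (SE, adjusted p = 0.0294). The call ended without CAST/EiJ (adjusted p = 0.112) or PWD/PhJ (0.0835), with MAS5 scores (0.422), without arrays of a high outlier share (0.484) and with the components (0.115).

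Probe set 2 of Scd2 was lower in the wild-derived strains, at 8.911 in CAST/EiJ and 9.683 to 9.93 in the other 3, against 10.02 to 10.58 in the classical strains, with no overlap. The estimate was -0.6516 (limma adjusted p = 0.0146), and the call ended with MAS5 scores (0.165), with RMA scores (0.296) and without arrays of a high outlier share (0.0966). It was 1 of 2 member probe sets that passed, against 3.95% of all. Probe sets 1 and 3 of Scd2 did not pass, with estimates of -0.09075 (limma adjusted p = 0.456) and -0.6554 (0.0966). Insig1 was at 9.517 in CAST/EiJ, the highest of all strains, and the wild-derived means overlapped the classical range of 8.676 to 9.147 (estimate +0.3007, adjusted p = 0.0683). The values of CAST/EiJ rest on 1 array, whose outlier share was 0.1 or more. Stard4 had an estimate of -0.3926 (0.0671). Of the 28 estimates 11 were above 0, and their median was -0.02955 against 0.01907 over all genes.

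Beside these values, 1 of 10 myelin markers and 2 of 8 astrocyte markers were lower in the wild-derived strains, against 2.12% of all genes. Mean myelin levels ran from 9.364 to 9.518 in the wild-derived and from 9.26 to 10.06 in the classical strains. Mean astrocyte levels ran from 9.52 to 9.589 and from 9.598 to 9.879, without overlap. The part of these markers in the Lss and Scd2 values was not tested. The ACTB ratio ran from 1.32 to 4.65 on the wild-derived arrays and from 1.13 to 3.71 on the classical arrays, and Scd2 probe set 2 had a slope of -0.4005 per doubling of it. With that ratio as a covariate the estimate for Scd2 probe set 2 was -0.5008 (limma adjusted p = 0.0277) and that for Lss was +0.1827 (0.0147).

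**Figure D3:**
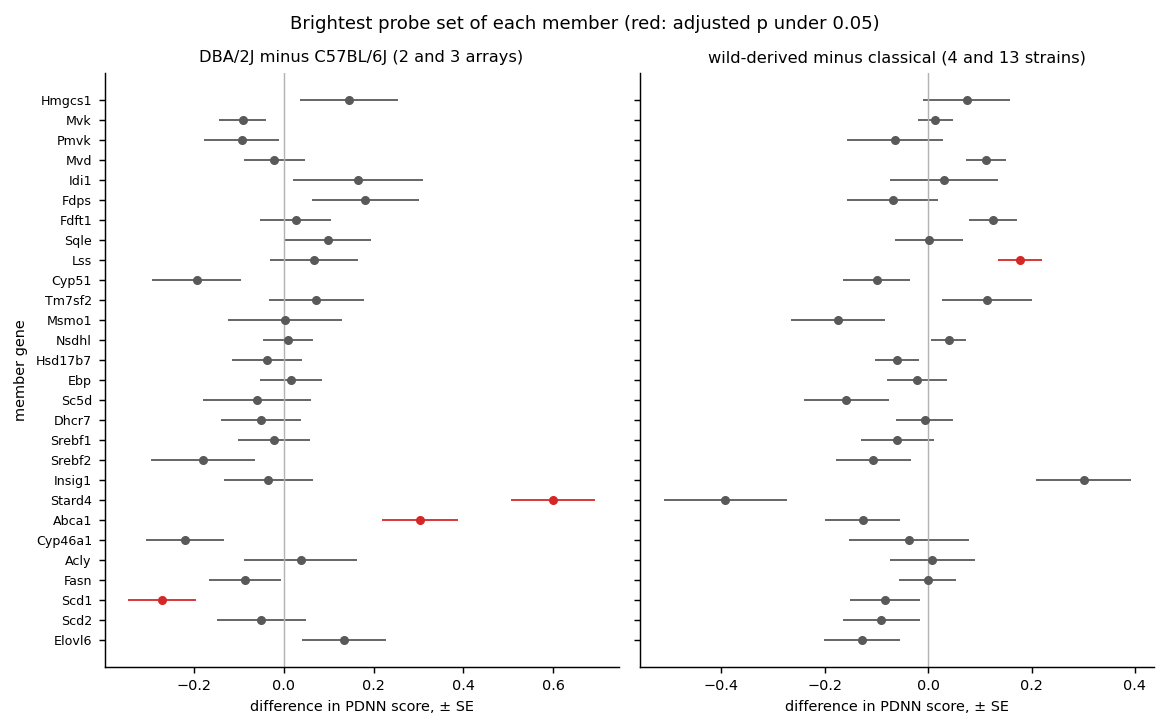
Differences in PDNN score (horizontal axes) with SE bars for the brightest probe set of each of the 28 members, DBA/2J minus C57BL/6J on the left and wild-derived minus classical strains on the right; red marks an adjusted p under 0.05. Stard4 and Abca1 lie to the right and Scd1 to the left in the parental comparison, Lss is the only red point in the wild-derived comparison, and the other members scatter on both sides of 0.

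Sex and age gave no calls among the members. In the male minus female comparison, 0 of 28 members passed limma's test against 0.0934% of genes. At an unadjusted p under 0.05 there was 1 member, against 690 of all 18193 genes. That member was Scd1, with means of 9.44 in males and 9.403 in females and an estimate of +0.02679 ± 0.01238 (SE, adjusted p = 1). For age within strains 0 passed, with 0% of genes called, and 4 had an unadjusted p under 0.05, against 510 of all 18193 genes. Cyp51 had a slope of -0.02069 ± 0.006196 (SE) score units per 10 days, with an adjusted p of 1. The difference between sexes was not called to differ between panels for any member, with 1 at an unadjusted p under 0.05. Over all 45037 probe sets, 2224 had such a p.

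Batch and RNA integrity moved with most members. Batch was called for 23 of 28 members against 78.5% of genes, a share near the background. The exceptions were Hsd17b7, Scd1, Scd2, Srebf2 and Stard4. The range of batch means had a median of 0.149 units over the members, the same as over the 10003 genes with a mean of 8 or more. The slope on the log2 ACTB ratio was called for 17 members, 15 higher and 2 lower with a rising ratio, against 41.5% of genes, 30.4% higher and 11.1% lower. The median slope was 0.09233 units per doubling over the members and 0.005917 over all genes. These ACTB backgrounds are over genes of any mean score.

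Among representative probe sets the steepest slope was that of Acly, the enzyme that makes cytosolic acetyl-CoA from citrate, which rose by 0.2623 ± 0.03856 (SE, limma adjusted p = 2.95e-08) per doubling. Idi1 rose by 0.2522, Sc5d by 0.2111, Elovl6 by 0.1624, Hmgcs1 by 0.1523 and Cyp51 by 0.1511. Fdps, the farnesyl diphosphate synthase, had a slope of -0.2106 ± 0.03831 (SE, adjusted p = 3.43e-06) and Srebf2 one of -0.1905 ± 0.03848 (adjusted p = 2.46e-05). Other probe sets of a gene could run the other way. Probe set 3 of Acly had a slope of -0.1478 (adjusted p = 0.000261), and probe sets 2 and 3 of Scd2 had -0.4005 (4.3e-06) and -0.6842 (3.98e-05), steeper than any representative. Of the 64 member probe sets 42 were called, against 17166 of all 45037 probe sets. With 4 principal components of all other genes in the model, 3 members were called (Fdps, Lss and Srebf1), with 13.3% of genes.

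Whether the members share a pattern over arrays was asked of the residuals, what is left of each score after strain, sex and batch. The 28 members give 378 pairs, and their median correlation was r = 0.252 over 199 array columns, with 264 pairs above 0 and quartiles of -0.0824 and 0.458. The same median was 0 over all pairs of 18193 genes and 0.145 over pairs of the 10003 genes with a mean of 8 or more, to which all 28 members belong. Most strains have 2 arrays, whose residuals mirror each other, so the 199 columns carry 92 degrees of freedom. These correlations are given as descriptions.

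The fatty acid enzymes were most alike, with a median r of 0.461 and 10 of 10 pairs above 0. The sterol enzymes had 0.383 and the mevalonate enzymes 0.255. Between the sterol and mevalonate enzymes on one side and the fatty acid enzymes on the other the median was 0.276, about that within the former (0.261). The highest pairs were Sqle with Msmo1, the C4 methyl sterol oxidase (0.864), Sqle with Cyp51 (0.802), Cyp51 with Elovl6 (0.793) and Cyp51 with Msmo1 (0.781). Hmgcs1 with Idi1, both of the mevalonate pathway, was at 0.753, and Sc5d with Acly at 0.748.

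Not all members followed. Correlated with the mean of the other members, Sqle (0.849), Acly (0.823) and Cyp51 (0.801) were closest, and Lss (-0.449), Srebf2 (-0.27) and Tm7sf2, a sterol C14 reductase (-0.196), were farthest. The lowest pair was Tm7sf2 with Scd2 (-0.677). The first principal component held 35.4% of the members' residual variance, against an equal share of 3.57% for each of 28 components. Probe sets 2 and 3 of Lss had r = -0.335 and -0.224 with probe set 1 over BXD strain means, and those of Abca1 had -0.0782 and -0.0948.

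The members' mean residual moved with measures that are not particular to lipid synthesis. Its r was 0.883 with the mean of the 35 related lipid genes, 0.64 with myelin markers, 0.64 with astrocyte markers, 0.414 with neuronal markers and 0.0998 with microglial markers. It was 0.402 with the log2 ACTB ratio, 0.567 with the share of probe sets called present and -0.321 with the scale factor. The genes outside the lists most like it over the 199 columns were Ccdc91 (0.875), Cse1l (0.871), Plekha1 (0.861), Mtx2 (0.855), Rnf34 (0.853), Fermt2 (0.849), Rabep1 (0.848), Gosr2 (0.848), Scrn1 (0.847) and Pgd (0.846). The part of tissue makeup and RNA integrity in the members' common pattern was not tested.

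The common pattern depended on how arrays were summarised and scaled. With MAS5 scores the median r was 0.053 among members and 0.046 among genes of mean 8 or more, with RMA scores 0.102 and 0.047, and after quantile normalisation 0.077 and 0.025. Among the mevalonate and sterol enzymes alone it was 0.084, 0.171 and 0.124.

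A second look removed 4 residual components shared by all other genes, which held 23.8%, 14.9%, 6.38% and 6.12% of the residual variance. They took a median of 54.4% of a member's variance and 54.9% over all genes, from 20.3% for Scd1 to 86% for Acly. After that the members' median r was 0.0872 with 240 of 378 pairs above 0, against 0.002 over all genes and 0.009 over genes of mean 8 or more. The mevalonate and sterol enzymes had a median of 0.184, with 112 of 136 pairs above 0. The fatty acid enzymes had 0.268, with 9 of 10 pairs above 0, and the median between both arms was 0.0676. This step was chosen after the data had been seen.

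The pairs highest after that step joined enzymes of cholesterol synthesis. They were Sqle with Msmo1 (0.676), Sqle with Nsdhl (0.582), Mvd with Tm7sf2 (0.571), Fdft1, the squalene synthase, with Sqle (0.569) and with Msmo1 (0.569), Cyp51 with Msmo1 (0.554) and Hmgcs1 with Idi1 (0.534). Tm7sf2 with Ebp was at 0.525, Hmgcs1 with Msmo1 at 0.506 and Sqle with Cyp51 at 0.505. These 10 genes are those whose promoter stretches were looked for above. The desaturases Scd1 and Scd2 were at 0.492, while the lowest pair was Tm7sf2 with Scd2 at -0.513. Sqle was again closest to the other members (0.674), and Abca1 (-0.291) and Srebf1 (-0.26) were farthest.

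The 10 genes outside the lipid lists most like the members after that step were Olig1 (r = 0.511), Gpr17 (0.507), Crip2 (0.506), Anxa5 (0.495), Pde6d (0.482), Ugt8a (0.48), Hexa, Tbc1d19, Opalin (0.473) and S100a16 (0.471). Olig1 and Gpr17 are known from the oligodendrocyte lineage, and Ugt8a and Opalin stand on the list of myelin markers. The mean of the myelin markers correlated with the members' mean at 0.418, that of astrocyte markers at 0.258 and that of neuronal markers at -0.211.

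**Figure D4:**
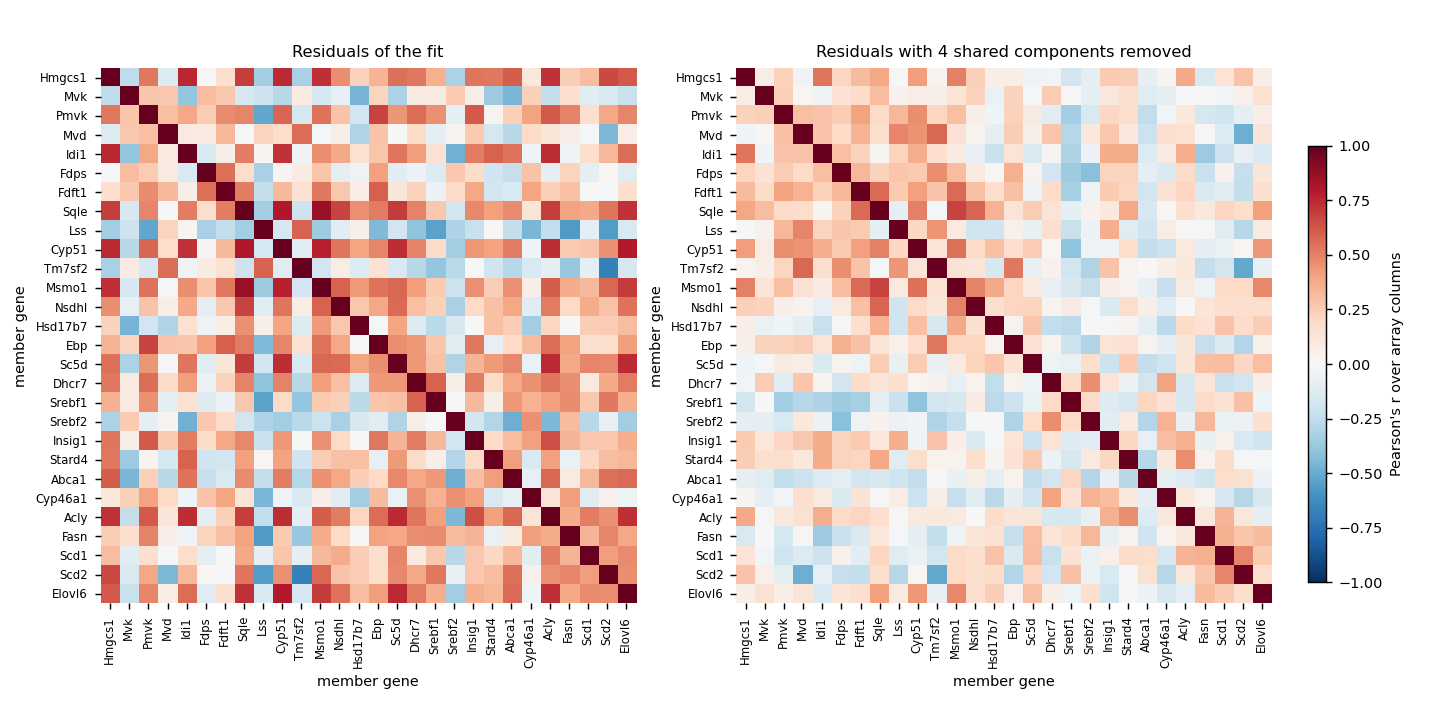
Pearson's r between residuals of each pair of the 28 members over 199 array columns (colour scale from -1, blue, to 1, red), genes in pathway order on both axes, for the residuals of the fit (left) and with 4 shared components removed (right). On the left most rows are red, with blue rows for Lss, Tm7sf2 and Srebf2; on the right most of the colour fades, and the block from Hmgcs1 to Ebp keeps mostly pale red pairs.

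For the members' common level the strain share was computed without a test. Their mean standardised score, with sex and batch in the model, had an intraclass correlation of 0.14 over BXD strains, 0.433 over CXB strains and 0.227 over all. Over adjusted levels of BXD strains the members' median r was 0.229, with 293 of 378 pairs above 0. Neither this median nor the shares above are set against other genes, so they describe the members alone. Taking the mean of the other members out of each gene changed the BXD intraclass correlation of Cyp51 from 0.497 to 0.698 and that of Stard4 from 0.546 to 0.498. That of Nsdhl went from 0.297 to 0.391, of Sqle from 0.232 to 0.327, of Elovl6 from 0.034 to 0.27 and of Msmo1 from 0.0983 to 0.26. These adjusted values were not tested.

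The wider lipid list named 41 further genes of sterol sensing, uptake, transport and fatty acid metabolism, of which 35 were measured. The rest were not analysed here. In the BXD panel, where 7.61% of all genes passed, 4 did: Lpl, a lipase of circulating fats (intraclass correlation 0.8334), Acaca, which makes malonyl-CoA (0.5497), Fabp7, a fatty acid carrier of astrocytes and progenitors (0.3949), and Ggps1, which makes geranylgeranyl diphosphate (0.385). In the CXB panel, where 4.58% of all genes passed, 5 did: Lpl (0.8407), Acss2, which activates acetate (0.6672), Elovl5 (0.5837), Ggps1 (0.5423) and Fabp7 (0.5098). Over all strains 16 of 35 passed, against 24.6% of genes.

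In DBA/2J against C57BL/6J, Lpl was higher (+0.7904, limma adjusted p = 2.32e-06) and Acaca was lower (-0.2377, adjusted p = 0.00976). In that comparison 2.63% of all genes were called higher and 3.11% lower. In the wild-derived strains 4 of 35 were lower and 0 higher, against 2.12% and 1.71% of all genes: Hsd17b12, a ketoacyl-CoA reductase (-0.5654, adjusted p = 0.0172), Npc2, a lysosomal cholesterol carrier (-0.3693, 0.0305), Stard3, which tethers late endosomes (-0.1499, 0.0459), and Vldlr, a lipoprotein and reelin receptor (-0.4331, 0.0441). No gene of the list passed for sex or age, and the ACTB slope was called for 21, with 15 higher and 6 lower, against 41.5% of genes. Batch was called for 28, a share near the 78.5% of all genes.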

How the data were processed

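Hippocampal RNA of mouse pools was measured on 201 Affymetrix M430 2.0 arrays. Each probe set has a score deposited by the authors in PDNN, RMA and MAS5 form. Per the labels every array was rescaled (mean 8, SD 2), but the deposited PDNN scores had a smaller spread and were used unchanged. Their software is named by method only, with its version not given in the sources read here. Groups came from the labels, and the file headers of 7 arrays disagreed with them.

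Limma 3.58.1 in R 4.3.3 (with data.table, version 1.17.8) fitted strain, sex and batch to 45037 probe sets (45101 less 64 controls). The array of mixed sex was left out and the B6D2F1 technical duplicates were averaged, which left 199 columns, 107 terms, 92 residual degrees of freedom and a median residual SD of 0.0782. Panels were tested by a moderated F-test, and wild-derived against classical strains over strain values. Tests were two-sided, with Benjamini-Hochberg adjustment over all probe sets and a threshold of 0.05. Of the probe sets, 34945 carried 1 symbol, 932 several and 9160 none in the annotation. The model was checked on simulated data.

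The members and lists were chosen with earlier results of these data known. Given in full are members that passed a contrast and the 6 with the largest BXD and the 4 with the largest CXB intraclass correlation. The 3 closest to and the 3 farthest from the mean of the others are given too. Other probe sets are named where they passed in the BXD, CXB, parental or wild-derived comparison. For the ACTB slope they are counted with examples, and over all panels and for batch they are not given. Likeness was the correlation of residuals with the members' mean. The alternatives were RMA (197 arrays, 4 of them left out because they were not most like their own PDNN column) and MAS5 scores, quantile normalization, no batch term, only probe sets averaging at least 8, arrays of an outlier share of 0.1 or more, with disagreeing headers, or of pools older than 100 days left out, single arrays left out, the ACTB ratio as a covariate, the second brightest probe set, panels fitted alone, and 4 components as covariates.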

Additional observations from a re-analysis of the deposited data

How the results depend on the processing

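Counts of members are of 28 and follow the alternative settings, with the cause not tested. The number of all probe sets called also moved with the setting, as given further on. A count without the share of its setting is not a result about the members. In the BXD panel, where 2 passed as reported, the count was 4 after quantile normalization, 4 without arrays whose outlier share was 0.1 or more, 4 with the ACTB ratio as a covariate, 1 with the second brightest probe set and 7 with 4 principal components of other genes as covariates, where 18.1% of genes passed. In the CXB panel, where 1 passed, it was 2 with RMA scores, 2 after quantile normalization, 0 without the batch term, 0 with the panel fitted alone and 6 with the components (9.2% of genes). The parental count of 3 was 0 with the second brightest probe set and otherwise 2 to 4 (4 without pools older than 100 days). Over all panels the count of 15 ran from 10 with MAS5 scores to 21 with the components, where 43.6% of genes passed. The wild-derived count of 1 was 0 with MAS5 scores, 2 without arrays of a high outlier share and 3 with the components (6.67% of genes). It was 5 with the ACTB ratio, where 4870 of all probe sets passed against 1777 as reported. With the components the counts for sex, ACTB slope and age were 1 (Pmvk, 3.39% of genes), 3 (13.3%) and 1 (Cyp51, 0.033%). The components and panels fitted alone were chosen after seeing the data. Leaving out single arrays or strains gave 2 to 3 parental, 0 to 3 wild-derived, 2 BXD, 1 to 3 CXB and 13 to 16 all-panel calls, 21 to 24 for batch, 16 to 18 for the ACTB slope and 0 for sex and age, and a median r of 0.244 to 0.257 (20 arrays drawn for whole-panel results). No result reversed. Over all probe sets the count changed most with the components, from 3132 to 6988 for BXD and from 52 to 1565 for sex, from 9698 to 17149 over all strains and from 17166 to 5757 for the ACTB slope. The CXB count of 1890 was 492 with the panel alone and 3579 with the components, the parental count of 3259 was 1480 without batch, and the batch count of 34737 was 16703 with MAS5. The wild-derived count of 1777 was 764 with MAS5, 672 with RMA, 634 without high-outlier arrays, 4870 with the ACTB ratio and 2835 with the components, and the age count of 1 was 8 with the components. RMA scores could not give the parental comparison, since the columns of a parental strain were left out. No paired analysis was possible because replicate numbers were given in accession order and only name arrays.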
